A study of Mus musculus with 4 samples.

Results

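MHC class I antigen presentation was examined in PS-RRA-mRNA-Seq of mouse striatal cells through 10 genes: the class I chains H2-K1, H2-D1 and B2m, the peptide transport genes Tap1, Tap2 and Tapbp, the immunoproteasome subunits Psmb8, Psmb9 and Psmb10, and the class I transactivator Nlrc5. The genes were taken by symbol from a table of 53465 genes, and each of the 10 was found once. Of them, 8 had enough counts to be tested, among 12961 tested genes. Psmb8 and Psmb9 did not, and are given as counts.

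The libraries came from 2 groups of 2. Control cells (STHdhQ7/Q7) and HD-homo cells (STHdhQ111/Q111) are immortalized mouse striatal lines, labelled with the C57/BL6 strain, that carry a knock-in Htt exon 1 with 7 or 111 glutamine repeats on both alleles. All cells received harringtonine, which blocks new initiation while elongating ribosomes run off, and then cycloheximide, and the mRNA of the polysome fractions was sequenced, so by the study's account the libraries hold mRNAs that stayed in polysomes after the run-off. The sample labels name a total RNA isolation and no polysome fraction, and the study's account was followed here. Both libraries of a group share 1 line, so the repeat and any other difference between the lines cannot be told apart. No total RNA of these cells was analysed here, so the amount of an mRNA in the cells and its share in polysomes cannot be told apart either.

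Class I molecules show peptides from inside the cell to cytotoxic T cells. A heavy chain such as H2-K or H2-D pairs with β2-microglobulin in the endoplasmic reticulum and takes up a peptide that the proteasome cut in the cytosol and the transporter TAP carried across the membrane. Resting neurons are known for little surface class I. Interferons raise the pathway through IRF and STAT factors and through NLRC5, which acts at a promoter module bound by RFX and by factors of the CREB family.

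The libraries summed to between 12372090 and 15472808 counts. Levels below are CPM, counts per 1000000 counts of a library after TMM scaling, which sets the libraries level on the bulk of their genes. The groups were tested with edgeR (quasi-likelihood, p-values adjusted over all tested genes after Benjamini and Hochberg), and a gene was called at an adjusted p under 0.05. Replicates differed beyond sampling noise, with a chi-square per degree of freedom of 30.6 in control and 32 in HD-homo. The 11 striatal neuron markers were low, summing to 3.66 to 7.96 CPM, with Drd1 and Drd2 at 0 counts in every library. They moved both ways. Adora2a had 45 and 26 counts in control and 7 and 3 in HD-homo and was called lower (-2.66, edgeR adjusted p = 0.00286). Ppp1r1b had 4 and 4 against 14 and 20 and was called higher (2.19, adjusted p = 0.0099), but not by DESeq2 (adjusted p = 0.0874) nor when either control library or HD-homo replicate 2 was left out (1.97 to 2.25, adjusted p of 0.0618 to 0.106). Penk, with 25 and 25 against 22 and 82, was not called (adjusted p = 0.121), and its log2 fold change was 1.82 without HD-homo replicate 1 (adjusted p = 0.000842) and 0.01 without HD-homo replicate 2 (adjusted p = 0.996). Of 20 immune rows, 11 were at 0 everywhere, among them Cd3e, Itgam, Aif1 and Cx3cr1, and Ptprc had 0, 2, 0 and 2 counts. The summed immune list was 44 and 46 CPM in control and 30.7 and 30.6 CPM in HD-homo, nearly all of it from Tmem119 and Cd68. The 1 called immune gene, Csf1r, went the other way, with 6 and 8 counts against 23 and 18 (1.68, edgeR adjusted p = 0.0229). It was not called by DESeq2 (adjusted p = 0.143) nor when either control library or HD-homo replicate 1 was left out (1.46 to 1.84, adjusted p of 0.0973 to 0.182). Ppp1r1b and Csf1r had enough counts to be tested through HD-homo alone, and Adora2a through control alone. The part of these markers in the class I values was not tested. The 8 endothelial markers summed to 0.566 to 1.02 CPM.

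Across the members the groups differed in a mixed way. H2-D1 and Tap1 were called higher in HD-homo polysomes and no tested member was called lower, with 6 of 8 not called. Over all tested genes 10.4% were called higher and 10.9% lower. Of the 8 tested members, H2-D1, Tap1, Tapbp and Psmb10 (4) had each HD-homo library above each control library. So did 28.6% of all tested genes. In H2-K1 and Nlrc5 (2) each was below, as in 28.5%. Nlrc5 had enough counts to be tested through control alone. B2m and Tap2 overlapped between the groups. The median log2 fold change was 0.40 over the 8 tested members and 0.0017 over all tested genes. For the count of 0 lower members in edgeR, none had an unadjusted p under 0.05 in that direction, and DESeq2 and limma-voom also called 0.

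Promoters of the chains and of Tap1 are shown because they carry the sequence elements for which this pathway is known. They are RefSeq sequence of GRCm38.p6, and 8 of 10 members had a window of 250 bases before to 50 after the start (not Tap2 or Nlrc5). Capitals mark the motif letters found on either strand. These are the κB site of class I genes (GGGGATTCC followed by C), the class I interferon element TTTCACTTC, the CRE-type core TGACG, the CCAAT box (ATTGG on the other strand) and, in B2m, an ISRE-type match (TTTC, any pair of bases, TTTC, here on the other strand). The H2-K1 stretch is chr17:34000358-34000497 on the minus strand, H2-D1 chr17:35262884-35263023 on the plus strand, B2m chr2:122147527-122147646 on the plus strand, and the Tap1 stretch chr17:34187330-34187555 on the plus strand.
H2-K1: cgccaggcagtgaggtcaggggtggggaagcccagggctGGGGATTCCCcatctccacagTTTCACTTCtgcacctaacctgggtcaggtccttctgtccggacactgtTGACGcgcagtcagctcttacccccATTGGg
H2-D1: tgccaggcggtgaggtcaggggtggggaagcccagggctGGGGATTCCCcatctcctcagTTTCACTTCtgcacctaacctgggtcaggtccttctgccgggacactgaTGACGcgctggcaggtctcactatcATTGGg
B2m: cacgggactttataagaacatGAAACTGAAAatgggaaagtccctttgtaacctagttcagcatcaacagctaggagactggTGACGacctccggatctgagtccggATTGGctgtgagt
Tap1: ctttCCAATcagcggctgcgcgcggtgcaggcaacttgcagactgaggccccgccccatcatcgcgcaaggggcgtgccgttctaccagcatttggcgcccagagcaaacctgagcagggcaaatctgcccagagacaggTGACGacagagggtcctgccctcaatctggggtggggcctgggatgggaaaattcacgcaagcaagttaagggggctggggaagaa

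The H2-K1 and H2-D1 stretches were identical at 127 of 140 bases (90.7%), with the κB, interferon and CRE-type letters in the same order and at the same places. The κB letters stood in these 2 of 8 member windows and in 0.126% of 27025 genes with a window. TTTCACTTC, which was added after the windows had been read, was in the same 2 and in 0.596% of genes. The CRE-type core was in 5 of 8 windows (23% of genes) and the CCAAT box in 6 of 8 (41.1% of genes). The windows of Tap1 and Psmb9 overlap, and for both motifs their matches are the same bases, counted for each gene. The ISRE-type letters were in B2m alone among the members (3.99% of genes), and a GAS-type match (TTCNNNGAA) in Psmb8 alone (9.55% of genes). By their RefSeq starts, Tap1 and Psmb9 begin 226 bases apart on opposite strands, with the Tap1 stretch between them. The gene spans given below are GENCODE's and reach farther upstream, so the Tap1 stretch lies within the span of Psmb9 there, and the H2-D1 stretch within that of H2-D1. These matches describe the letters and say nothing of binding in these cells.

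H2-D1, which encodes a classical class I heavy chain (chr17:35262730-35267499, plus strand), was among the higher genes. Its level was 118.6 and 128.7 CPM in control and 194.1 and 219.5 CPM in HD-homo. Each HD-homo library exceeded each control library by more than the gap between replicates. The means were 124 ± 7.13 and 207 ± 17.9 CPM (SD, n = 2 each), a 1.67-fold difference, with a log2 fold change of 0.74 (SE 0.20, 95% interval 0.31 to 1.17, edgeR adjusted p = 0.0163). The call was lost, with the direction kept, without control replicate 1 (0.69, adjusted p = 0.149), without control replicate 2 (0.80, adjusted p = 0.077) and without HD-homo replicate 2 (0.65, adjusted p = 0.0646).

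H2-K1, the other classical heavy chain in the table (chr17:33996017-34000347, minus strand), did not share that difference. It had 35.6 and 40.8 CPM in control against 35.1 and 32.6 CPM in HD-homo. The HD-homo libraries were lower on average by less than the gap between the control libraries. The log2 fold change was -0.17 (SE 0.22, interval -0.65 to 0.30, edgeR adjusted p = 0.661). Within a library the count of H2-D1 per count of H2-K1 was 3.33 and 3.16 in control and 5.53 and 6.74 in HD-homo. The 2 groups did not overlap in this ratio, which does not depend on the scaling between libraries, and its log2 mean was 0.91 higher in HD-homo. The exact two-sided permutation test gave p = 0.33, the smallest that 2 libraries against 2 allow, and the ratio was chosen after the values were seen. RSEM divides reads that fit several class I genes among them, so values of single chains are less certain than those of other genes.

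B2m encodes β2-microglobulin, the light chain of every class I molecule (chr2:122147686-122153083, plus strand), and had the highest level per length of the members. It was at 188.3 and 119.1 CPM in control and at 335.3 and 174.5 CPM in HD-homo. Replicate 1 was the higher library in both groups, and HD-homo replicate 2 lay below control replicate 1, so the groups overlapped. The means were 154 ± 49.0 and 255 ± 114 CPM (SD, n = 2 each), 1.66-fold apart, and the log2 fold change of 0.73 (SE 0.30, interval 0.08 to 1.38) did not pass the test (edgeR adjusted p = 0.113). This value and its call changed with the library left out. It passed the test without control replicate 1 (1.1, adjusted p = 0.00879) and without HD-homo replicate 2 (1.13, adjusted p = 0.00111), but was 0.43 without control replicate 2 (adjusted p = 0.467) and 0.20 without HD-homo replicate 1 (adjusted p = 0.706). Without the filter on low counts it also passed (0.74, adjusted p = 0.00976).

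**Figure D1:**
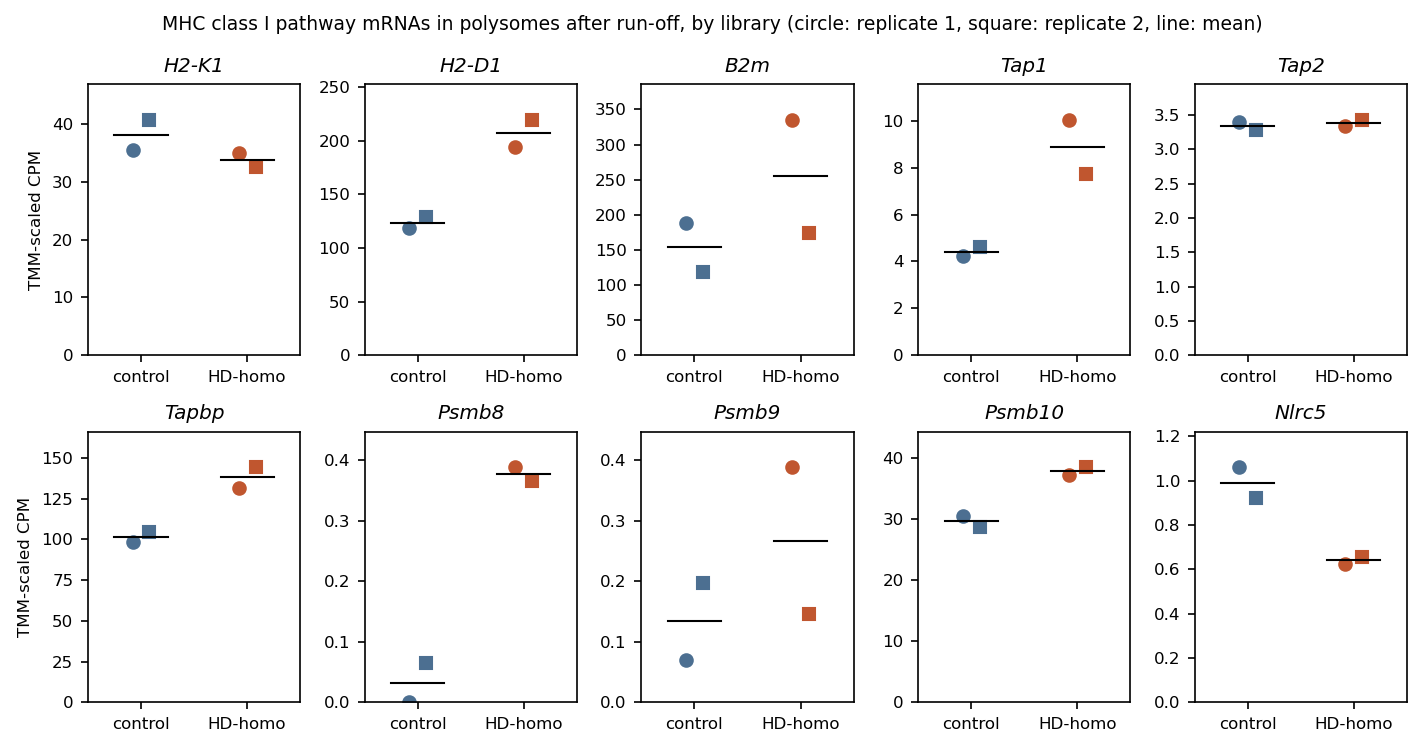
TMM-scaled CPM (vertical axis, linear, from 0) of the 10 members in each control and HD-homo library, with circles for replicate 1, squares for replicate 2 and a line at the mean of each group. H2-D1 and Tap1 are separated between the groups, B2m overlaps with replicate 1 highest in both groups, and Psmb8 and Psmb9 stay under 0.4 CPM.

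Other heavy chains went in several directions. Of 26 nonclassical (class Ib) genes listed, 7 were tested, 3 were called lower, 0 higher and 10 were at 0 in every library. H2-T23, which encodes Qa-1, the chain that presents signal peptides to the NKG2A receptor of NK cells, had 186 and 260 counts in control and 41 and 45 in HD-homo. It fell by 2.22 on the log2 scale (SE 0.29, edgeR adjusted p = 6.7e-05), and the groups lay far apart. H2-T10, a polymorphic pseudogene in the annotation, had 89 and 70 counts against 17 and 11 and fell by 2.35 (SE 0.39, adjusted p = 0.000529). Only control gave H2-Q6 enough counts to be tested. H2-Q6 had 14 and 19 counts against 5 and 0, and its call (-2.51, adjusted p = 0.031) was lost without control replicate 2 (-2.34, adjusted p = 0.091), without HD-homo replicate 2 (-1.51, adjusted p = 0.229) and with DESeq2 (-2.55, adjusted p = 0.114).

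Antisense genes lie over the first 2 of these. Gm7030, on the same strand as H2-T10, shares 5590 bases with it and had 0 counts in every library. Reads in those bases cannot be assigned with certainty. BC023719, opposite H2-T10, had 186 and 155 counts in control and 0 and 0 in HD-homo, and A930015D03Rik, opposite H2-T23, had 133 and 119 against 97 and 111. The library kit keeps strand, but the strand setting of the counting is not given in the sources used here, so sense and antisense reads may not be fully apart. H2-T22, a ligand of some γδ T cells, had 216 and 120 counts against 252 and 227 (log2 fold change 0.65, edgeR adjusted p = 0.175) and passed the test without control replicate 1 (1.20, adjusted p = 0.00654). H2-K2 (-1.38, adjusted p = 0.085), H2-Q4 (-0.65, adjusted p = 0.227) and H2-M3 (-0.95, adjusted p = 0.127) were not called. H2-Q1, H2-Q2 and H2-Q10 were too low to test and had 0 counts in both HD-homo libraries, against 18, 12 and 15 in control. The exact intervals of their count ratios, HD-homo over control, reached up to 0.252, 0.398 and 0.308. H2-Q7, also untested, lay the other way with 4 and 5 counts against 13 and 8 (count ratio 2.58, exact interval 1.13 to 6.40), and H2-Bl overlapped with 7 and 6 against 11 and 4.

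Summing the 9 tested heavy chain genes into 1 feature removes the division of reads among those 9, though not with the untested chains. The sum was 199 and 209.6 CPM in control and 260.4 and 276.6 CPM in HD-homo, so the groups did not overlap. Its log2 fold change was 0.39 (SE 0.20, edgeR adjusted p = 0.203), short of the threshold, and H2-K1 and H2-D1 made up 84.9% of its counts.

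Class I-like chains outside the MHC were also counted. Of 7 listed, 4 were tested and 2 were called, both higher. Fcgrt, which encodes the neonatal Fc receptor and pairs with B2m, had 127 and 166 counts in control and 331 and 405 in HD-homo (log2 fold change 1.48, SE 0.25, edgeR adjusted p = 0.000624). Procr, the endothelial protein C receptor, which has the class I fold but no β2-microglobulin, had 67 and 66 counts against 333 and 385 (2.57, SE 0.26, adjusted p = 7e-06). The whole list of other class I and class I-like chains had a median of -0.95 over 11 tested genes, with 3 called lower and 2 higher.

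**Figure D2:**
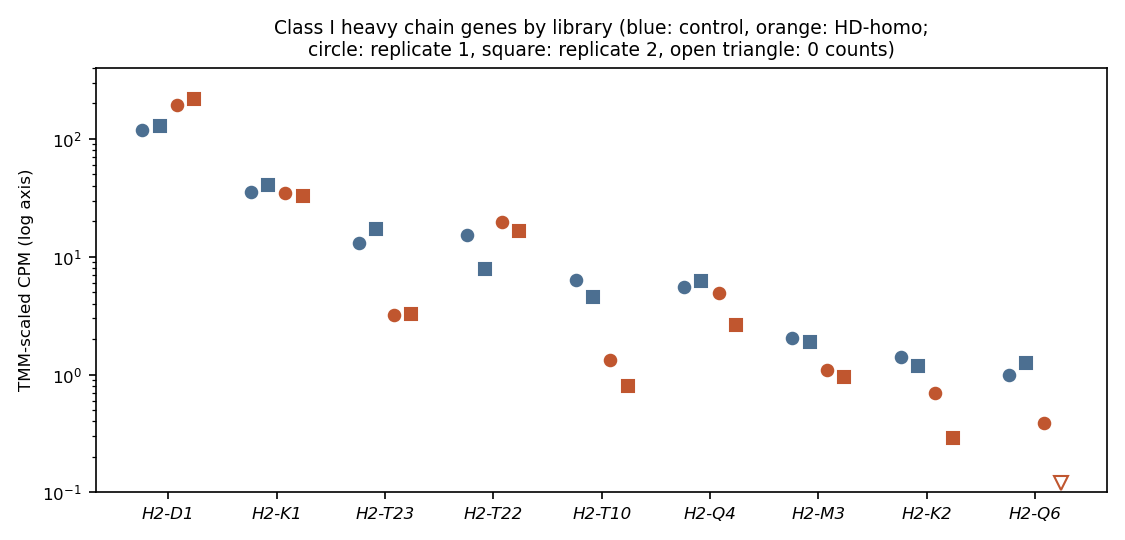
TMM-scaled CPM (log axis) of the 9 tested class I heavy chain genes in each library, blue for control and orange for HD-homo, circle for replicate 1, square for replicate 2 and an open triangle at the base for 0 counts. H2-D1 is highest and above control in both HD-homo libraries, while H2-T23 falls from 13.2 and 17.1 CPM to 3.19 and 3.29 CPM.

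Tap1 and Tap2 encode the partner chains of the heterodimer that pumps peptides into the endoplasmic reticulum, and only Tap1 was called. Tap1 (chr17:34187553-34197225, plus strand) had 60 and 70 counts in control and 129 and 106 in HD-homo, or 4.24 and 4.597 against 10.04 and 7.74 CPM. Both HD-homo libraries were higher, with replicate 1 above replicate 2. The means of 4.42 ± 0.249 and 8.89 ± 1.62 CPM (SD, n = 2 each) were 2.01-fold apart, with a log2 fold change of 1.00 (SE 0.29, interval 0.38 to 1.63, edgeR adjusted p = 0.0225). The call was lost without control replicate 1 (0.95, adjusted p = 0.0752) and without HD-homo replicate 1 (0.82, adjusted p = 0.126).

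Tap2 (chr17:34203527-34216321, plus strand) lies beside Psmb8 in the class II region and was not called. It had 48 and 50 counts in control and 43 and 47 in HD-homo, or 3.40 and 3.28 against 3.35 and 3.43 CPM. The groups overlapped, and the log2 fold change was 0.02 (SE 0.32, edgeR adjusted p = 0.976). Its interval of -0.67 to 0.71 is wide at this depth. Within a library the count of Tap1 per count of Tap2 was 1.25 and 1.4 in control and 3 and 2.26 in HD-homo. The groups did not overlap in this ratio, whose log2 mean was 0.98 higher in HD-homo (exact two-sided permutation test, p = 0.33, the smallest possible; the ratio was chosen after the values were seen).

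Tapbp encodes tapasin, which bridges TAP and the empty heavy chain (chr17:33915899-33929292, plus strand). It had 98.3 and 104.4 CPM in control and 131.6 and 144.3 CPM in HD-homo. Both HD-homo libraries were above both control libraries by more than the gap between replicates, but the log2 fold change of 0.45 (SE 0.20, interval 0.02 to 0.87) did not pass the test (edgeR adjusted p = 0.145). Its annotation shares 3422 bases on the same strand with Zbtb22, a gene with 949 and 859 counts in control and 491 and 515 in HD-homo, so reads in the shared part cannot be assigned with certainty.

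No other gene of the loading complex and no trimming enzyme was called higher. Of 11 listed and tested genes 0 were higher and 1 was lower in edgeR, with a median of -0.20; none had an unadjusted p under 0.05 in the higher direction, and DESeq2 and limma-voom called 0 higher. The chaperones Calr (-0.20, edgeR adjusted p = 0.591) and Canx (-0.45, adjusted p = 0.190) and the oxidoreductase Pdia3 (ERp57; less than 0.01 from 0, adjusted p = 0.995) were not called. Neither was Tapbpl, the peptide editor TAPBPR (0.49, adjusted p = 0.243), nor Erap1, the aminopeptidase that trims peptides in the endoplasmic reticulum (0.61, adjusted p = 0.180). The 1 called gene was Npepps, a cytosolic aminopeptidase (-0.71, SE 0.24, adjusted p = 0.0482), and that call was lost without control replicate 2 (-0.42, adjusted p = 0.458) and without HD-homo replicate 1 (-0.58, adjusted p = 0.203). It was also lost by library size alone (adjusted p = 0.0602), under the minimum of 10 counts in each library (0.068) and in limma-voom (0.0631).

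**Figure D3:**
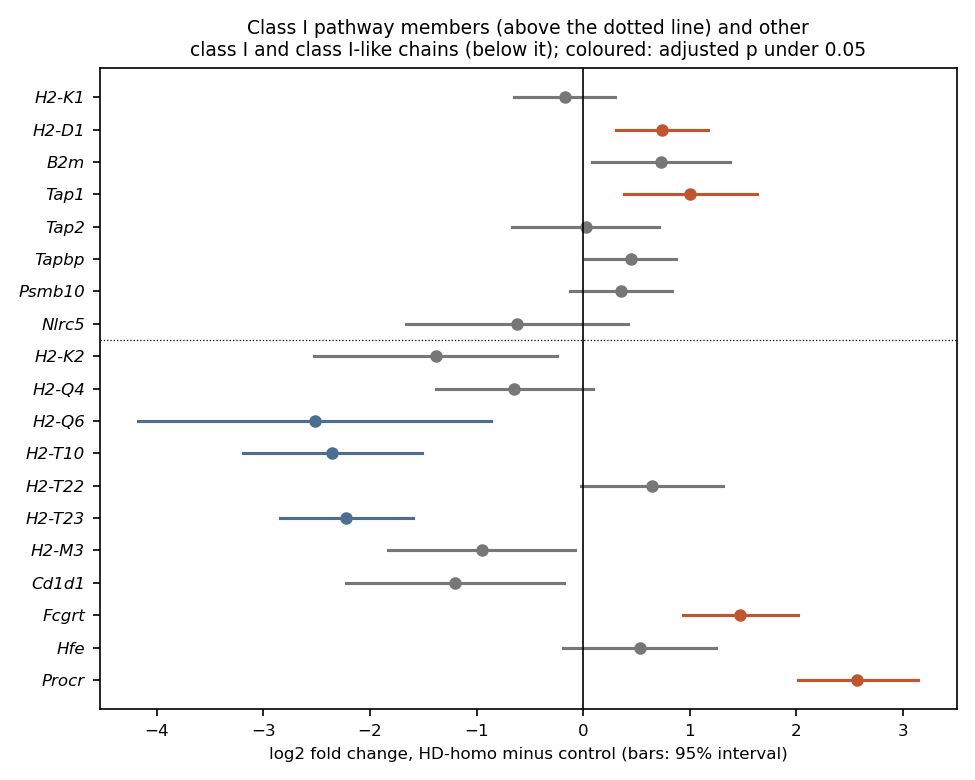
Log2 fold change of HD-homo minus control (horizontal axis) with its 95% interval for the 8 tested members above the dotted line and 11 other class I and class I-like chains below it, coloured where the edgeR adjusted p was under 0.05. Among the members H2-D1 (0.74) and Tap1 (1.00) are coloured, and below the line Procr (2.57) and H2-T23 (-2.22) lie on opposite sides of 0.

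The immunoproteasome subunits Psmb8, Psmb9 and Psmb10 replace Psmb5, Psmb6 and Psmb7 of the constitutive 20S core when a cell meets interferon, which changes the peptides made. Psmb8 (chr17:34197721-34201454, plus strand) had 0 and 1 counts in control and 5 and 5 in HD-homo, a count ratio of 11.1 (exact interval 1.57 to 480, covering counting error only). The HD-homo libraries were the higher, at 0.389 and 0.365 CPM, in a range where single reads decide the value. Psmb9 (chr17:34181987-34187764, minus strand) had 1 and 3 counts against 5 and 2, a ratio of 1.94 (0.492 to 9.02), and the groups overlapped. Its annotation shares 212 bases with Tap1 on the other strand.

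Psmb10 (chr8:105935735-105938444, minus strand) was the 1 immunoproteasome subunit at a measurable level. It was at 30.6 and 28.8 CPM in control and 37.3 and 38.5 CPM in HD-homo. Both HD-homo libraries were above both control libraries, and the means of 29.7 ± 1.27 and 37.9 ± 0.863 CPM (SD, n = 2 each) gave a log2 fold change of 0.35 (SE 0.22, interval -0.12 to 0.83) that did not pass the test (edgeR adjusted p = 0.318).

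Within a library each subunit was set against its constitutive counterpart, per kilobase of exon. Psmb10 stood at 14.1% and 13.8% of Psmb7 in control and at 15.5% and 13.7% in HD-homo, so the groups overlapped (log2 difference 0.06, exact two-sided permutation test, p = 1). Pooled over the libraries of a group, Psmb9 was 0.0161% of Psmb6 in control and 0.0276% in HD-homo (log2 difference of the library means 0.87, exact permutation p = 0.67). Psmb8 was 0.0118% of Psmb5 in control, which rests on 1 count, and 0.123% in HD-homo.

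**Figure D4:**
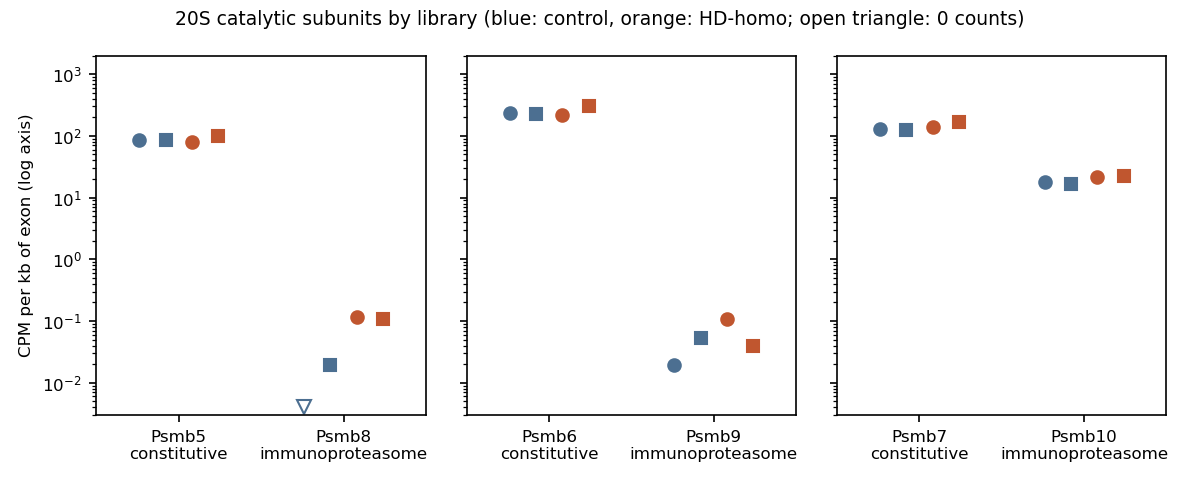
CPM per kilobase of exon (log axis) of each constitutive 20S catalytic subunit and its immunoproteasome counterpart in each library, blue for control and orange for HD-homo, circle for replicate 1, square for replicate 2, and an open triangle for 0 counts. Psmb8 and Psmb9 lie at most near 0.1 in any library, far below Psmb5 and Psmb6, while Psmb10 is at 13.7% to 15.5% of Psmb7.

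The constitutive core showed no called gene. Of 14 core genes tested none was called by edgeR, DESeq2 or limma-voom, none had an unadjusted p under 0.05, and the median was 0.10. Psmb5 (0.08, edgeR adjusted p = 0.861), Psmb6 (0.16, adjusted p = 0.696) and Psmb7 (0.30, adjusted p = 0.383) are the counterparts used above. Of 9 activator and assembly genes 1 was higher, with a median of 0.28. The interferon-inducible PA28 subunits Psme1 (0.17, adjusted p = 0.655) and Psme2 (0.60, adjusted p = 0.0658) were not called. Psmg2, an assembly chaperone, was called (0.70, adjusted p = 0.032) but lost the call without any 1 of the 4 libraries (0.68 to 0.71, adjusted p of 0.0804 to 0.157).

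Nlrc5 encodes the transactivator of class I genes (chr8:94434356-94527272, plus strand). It was not called, and its direction was opposite to that of H2-D1 and Tap1. It had 15 and 14 counts in control and 8 and 9 in HD-homo, or 1.06 and 0.919 against 0.622 and 0.657 CPM. Both HD-homo libraries lay below both control libraries, at a few counts each. Nlrc5 had enough counts to be tested through control alone, so its lower direction is not independent of that selection. It was not tested under a minimum of 10 counts in each library. The log2 fold change of -0.62 (SE 0.48, interval -1.66 to 0.42) did not pass the test (edgeR adjusted p = 0.442), and the count ratio was 0.648 (exact interval 0.334 to 1.22).

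Other regulators of class I transcription were examined as a list of 18 genes, of which 17 were tested, 2 were higher and 0 lower in edgeR, with a median of 0.07. In the lower direction 1 had an unadjusted p under 0.05, and DESeq2 and limma-voom called 0. Irf1 (0.11, edgeR adjusted p = 0.806) and Rfx5 (-0.03, adjusted p = 0.960), which bind class I promoters, were not called. Stat2 (0.51, adjusted p = 0.500), which carries the type I interferon signal, was not called either. Of the called genes, Irf7 amplifies type I interferon responses and Irf9 is the DNA-binding part of the ISGF3 complex.

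Both called regulators were highest in the library in which B2m was highest. Irf7 had 3 and 8 counts in control and 74 and 16 in HD-homo (log2 fold change 3.17, SE 0.73, edgeR adjusted p = 0.00567). Only HD-homo gave Irf7, and Usp18 below, enough counts to be tested. Irf9 had 79 and 91 counts against 308 and 108 (1.46, SE 0.41, adjusted p = 0.0210). HD-homo replicate 1 was the high library for both, and without it neither was called (Irf7 1.64, adjusted p = 0.166; Irf9 0.46, adjusted p = 0.456). Irf9 was also not called by limma-voom (1.24, adjusted p = 0.0851). Usp18, an interferon-induced brake on the type I receptor, had 0 and 1 counts in control and 58 and 13 in HD-homo, a count ratio of 78.5 (exact interval 13.6 to 3150, edgeR adjusted p = 0.000953), and had too few counts to be tested without HD-homo replicate 1. Tap1 (10.04 against 7.74 CPM) was likewise higher in HD-homo replicate 1 than in replicate 2, whereas H2-D1 (194.1 against 219.5 CPM) was lower. The part of these differences between replicates in the class I values was not tested.

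The listed interferon ligands were not detected, and other interferon genes were not examined. Ifnb1, Ifng, Ifna2, Ifna4, Ifnl2 and Ifnl3 had 0 counts in all 4 libraries, which allows up to 0.194 to 0.242 CPM (3 counts of a library), so low levels were not detectable at this depth. Of 17 listed ligand, receptor and signalling genes 11 were tested, with 2 higher, 0 lower and a median of 0.26; none had an unadjusted p under 0.05 in the lower direction, and DESeq2 and limma-voom called 0 lower. Besides Usp18, Ifngr2, a chain of the interferon gamma receptor, was called. It had 747 and 553 counts in control and 1333 and 1102 in HD-homo (log2 fold change 1.05, SE 0.24, edgeR adjusted p = 0.00619), and the call was lost without control replicate 2 (0.80, adjusted p = 0.0730).

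Per kilobase of exon the members kept a fixed order at the top. On that scale, as means of control and then HD-homo, B2m was at 178.7 and 296.4 CPM, H2-D1 at 47.9 and 80.2, Tapbp at 27.9 and 38.0, Psmb10 at 17.4 and 22.2 and H2-K1 at 13.0 and 11.5. In every library B2m exceeded the level per length of at least 96.8% of tested genes and H2-D1 that of at least 88% of them. Tap1 moved from 0.807 to 1.62 and Tap2 from 0.883 to 0.896 CPM per kilobase. On this scale Tap1 was the lower of the pair in control and the higher in HD-homo. By counts, without division by length, Tap1 was the higher in every library. Nlrc5, at 0.117 and 0.0753, was the lowest of the tested members and lay above only 2.3% to 4% of tested genes.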

How the data were processed

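mRNA of polysome fractions after the run-off was measured in 2 control and 2 HD-homo libraries, grouped by their titles. Per the submitters' processing notes, the authors used cutadapt, Bowtie 1.1.2, RSEM 1.3.0 and DESeq2 on GRCm38.p5. The deposited values are whole-number counts per gene. How RSEM's estimates became whole is not given in the sources used here. A deposited normalized signal equalled those counts divided by 1 factor per library (213860 of 213860 values, relative tolerance 1e-6) and was not used.

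Genes passing filterByExpr were fitted with edgeR 4.0.16 (R 4.3.3) by group alone, which gave a common dispersion of 0.0324. The fit was tested on simulated data. GENCODE M21 (GRCm38), matched by gene ID for 53274 of 53465 genes, gave coordinates and exon lengths. SD is of CPM over 2 libraries. The study calls the replicates independent experiments, and the labels give only their numbers. The edgeR p-values set a group difference against the fitted spread between these libraries, not against a spread between lines. Intervals on counts cover counting error only (95%).

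All members are named. Of other lists, the rule took called class Ib and class I-like chains, a set of 18 genes whatever their values, and up to 3 called genes of lowest p per list; Tap1 per Tap2, H2-D1 per H2-K1, uncalled heavy chains, overlapping genes, H2-DMa, H2-Q7, H2-Bl, Tmem119, Cd68 and Penk were added after their values were seen. Some genes that the rule takes are not reported here. The members and lists were chosen with earlier results of these data known. Alternatives were RLE scaling, library size alone, other filters, DESeq2 1.42.0, limma-voom (limma 3.58.1), a replicate block, summed chains and leaving out each library.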

Additional observations from a re-analysis of the deposited data

How the results depend on the processing

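With 2 libraries a group, a call of a member could rest on 1 library, and the depth leaves Psmb8, Psmb9 and Nlrc5 at a few counts each. Which members were called changed with the library left out, as given above for H2-D1, Tap1 and B2m. Leaving out 1 library at a time, 1 to 2 members were called higher (2 with all libraries), other pathway genes called higher numbered 6 to 10 (9) and lower 3 to 5 (4), and the HD-homo over control ratio ranged from 0.982 to 1.11 for Psmb10/Psmb7 (1.04), from 0.824 to 3.41 for Psmb9/Psmb6 (1.72) and from 5.44 to 12.4 for Psmb8/Psmb5 (without control replicate 2 it has no finite value). The lowest ratios of Psmb10/Psmb7 and Psmb9/Psmb6, both without HD-homo replicate 1, reversed the direction. Without the filter other pathway genes called lower rose to 8. Under a minimum of 10 counts in each library they were 2, as H2-Q6 was no longer tested and Npepps lost its call (edgeR adjusted p = 0.068). Those called higher were 6 under that minimum, where H2-DMb1, Irf7 and Usp18 were not tested. All tested genes called higher and lower were 1344 and 1408 (10.4% and 10.9%), with 815 and 883 under that stricter filter. Of the 77 other pathway genes tested with all libraries, 9 were called higher and 4 lower.

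The replicate numbers were tried as a block. The differences between replicate 1 and 2 correlated at 0.39 across tested genes between the groups (0.564 over genes with a mean log2 CPM over 3). The labels do not say whether libraries of the same number share anything else, and with 2 pairs this was not tested. With the replicate block 4 members were called higher (B2m at 0.69 and Tapbp at 0.44 were added), 16 other pathway genes higher and 12 lower, and 2126 and 2350 of all tested genes; the cause was not tested.

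Among members 82 of 93 alternative values kept direction and side of the threshold, and Tap2 reversed at 0.00 without control replicate 2. Genes near 0 reversed as follows: Cd74 (-0.01) to 0.01 by library size alone, 0.08 in limma-voom and 0.01 with the replicate block, and -0.47 to 0.63 leaving out a library; Pdia3 to 0.02 by library size alone and to 0.01 with no filter, in limma-voom and with the replicate block, and -0.17 to 0.19 leaving out a library. Leaving out a library, Psmb5 ranged from -0.12 to 0.26, Psmb6 from -0.10 to 0.40, Rfx5 from -0.47 to 0.31, Stat2 from -0.45 to 1.09 and Tap2 from 0.00 to 0.06. RLE scaling, DESeq2 and limma-voom left the members called higher at 2.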

Other observations

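Genes of the class II pathway, which presents peptides from endosomes, were counted beside the class I genes. Of 13 listed genes 4 were tested, 2 were called higher and 0 lower in edgeR (in the lower direction 1 had an unadjusted p under 0.05, and DESeq2 and limma-voom called 0), and 7 were at 0 in all libraries, among them the class II transactivator Ciita. H2-DMb1, a chain of the peptide exchange factor H2-DM, had 2 and 2 counts in control and 36 and 48 in HD-homo (log2 fold change 4.45, SE 0.54, edgeR adjusted p = 3.9e-05). It had enough counts to be tested through HD-homo alone, and was not tested under a minimum of 10 counts in each library. Its partner H2-DMa had 46 and 39 counts against 19 and 23 (-0.87, adjusted p = 0.122), so the 2 chains of that factor lay on opposite sides of 0. Ifi30, the lysosomal thiol reductase GILT, had 583 and 585 counts against 896 and 1127 (0.93, SE 0.21, adjusted p = 0.00588). The invariant chain Cd74 had 20 and 10 counts against 15 and 12 (-0.01, adjusted p = 0.993).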
